A study of Homo sapiens with 4 samples.

Results

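The response of A375-S melanoma cells to encorafenib was read from 2 of the 4 libraries of the series, 1 of untreated cells and 1 of cells given 10 nM encorafenib for 48 h. These libraries were chosen by their labels alone. A375 is an established human melanoma line, with the genotype label "BRAF- mutated" in every group, and A375-S is the encorafenib-sensitive line that the series sets beside the resistant line A375-R. The remaining 2 libraries hold A375-R cells, untreated or under the same dose for the same time, and serve here only as a side-by-side reading. Cells were kept in high-glucose DMEM with fetal bovine serum, per the labels. The labels do not say how the resistant line was derived, whether either line is a clone, or whether untreated cells were harvested at the same hour as treated ones. Total RNA was read with a small-RNA library kit, and raw reads were tallied by gene and by mature microRNA in each library.

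Encorafenib blocks the kinase activity of mutant BRAF, which in melanoma keeps the kinases MEK and ERK switched on without a growth factor. Active ERK drives transcription of immediate early genes, of ETS factors, of cyclin D1 and of its own feedback inhibitors, the DUSP phosphatases and the Sprouty proteins. Melanoma cells deprived of this signal are known to leave the cell cycle and, in many lines, to take up features of pigmented melanocytes.

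The gene tables summed to 33664470 counts in untreated and 25539835 in treated cells, of which protein-coding genes held 435351 and 215894. Every comparison below is therefore a ratio between 2 libraries, with no replicate check, no p-value and no measure of the spread between cultures. A ratio is the log2 of TMM-scaled counts, treated over untreated, with an exact conditional 95% interval that covers only the error of counting. Amplified reads lacking molecular identifiers cannot be taken as separate molecules, so the interval may be too narrow even for that error. A gene was called higher or lower where the bound of its interval nearest 0 reached 2-fold, a log2 value of 1. Genes were compared if any of the 4 libraries held 10 counts or more. Scaling by total counts would lower every ratio by about 0.58, because the scaled size of the treated library was 0.507 of the untreated one by TMM and 0.759 by totals. Ratios below are relative to TMM, under which the median protein-coding gene stood at -0.08 (-0.65 by total counts). The melanoma marker SOX10 had 157 and 73 counts in untreated and treated cells, S100B had 53 and 63, and PMEL, MLANA, TYR and TYRP1 had 0 in both.

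Of 8865 gene entries compared, 315 (3.55%) were higher and 222 (2.5%) lower in treated cells. Among 7916 protein-coding genes, 170 (2.15%) were higher and 196 (2.48%) lower, and these percentages are the background for every list below. By total counts the split of protein-coding genes moved to 90 higher and 534 lower. Lists were read by the members that passed the count minimum, and a member could pass through the library in which it was high, so counts over lists describe them and do not measure their strength.

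**Figure D1:**
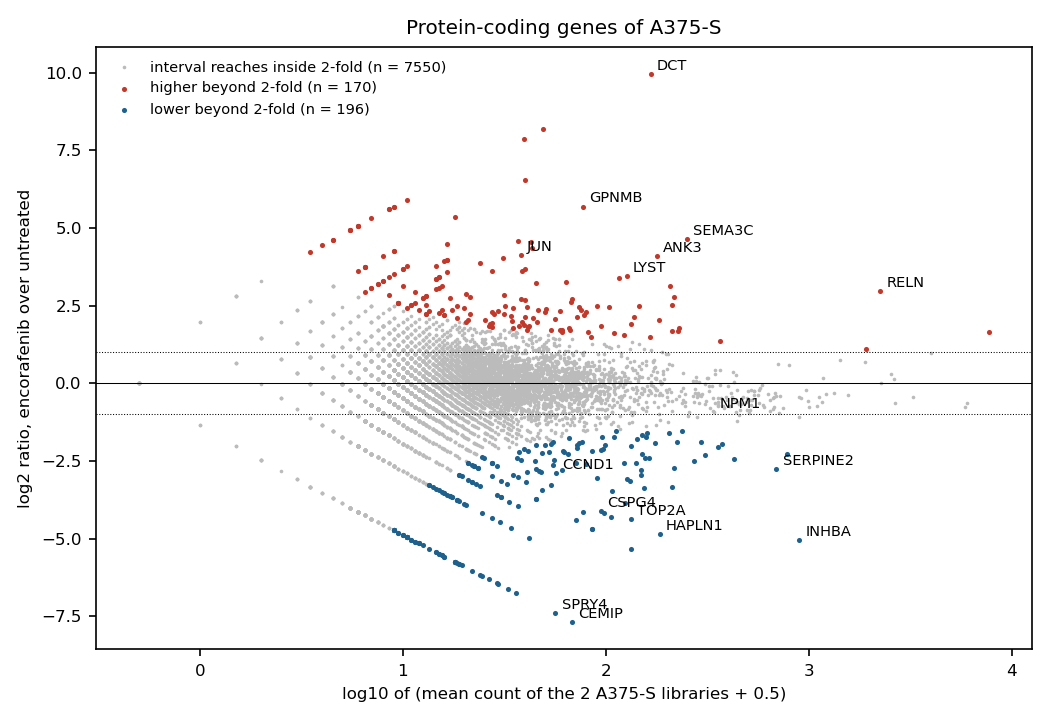
Each point is 1 of 7916 protein-coding genes, with the log10 of the mean count of the 2 A375-S libraries plus 0.5 on the x axis and the log2 ratio of treated over untreated cells on the y axis. The 170 genes called higher (red) and 196 called lower (blue) lie outside the dotted lines at 2-fold. The outermost streaks at the left are genes with 0 counts in 1 library.

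Known outputs of ERK were among the transcripts lower under the drug. Of 28 listed outputs of the pathway, 23 were compared, 8 were lower and 0 higher, and their median log2 ratio was -1.74 (-1.72 with members at 0 in a library set at 3 counts). The 8 were feedback inhibitors, ETS factors, early response genes and the gene of cyclin D1. The other 15 were not called, and 6 of them had intervals wholly below 0. In bulk RNA, fewer cells that make a transcript and less of it per cell cannot be told apart.

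Among the feedback inhibitors, SPRY4 had 112 counts in untreated and 0 in treated cells, 18.9-fold lower when the 0 is set at 3 counts in that library. This floor is used throughout. A fold against the floor is not a lower limit, since the counting interval of SPRY4 began at 15.1-fold. SPRY2 had 96 and 13 counts, a log2 ratio of -1.88 (-2.86 to -1.06). DUSP6, the phosphatase that removes the activating phosphates from ERK, had 117 and 12 counts, at -2.27 (-3.30 to -1.45). These feedback genes were lower, whereas SPRY1, with 16 and 0 counts, and DUSP4, with 73 and 30, were not called.

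The PEA3 group of ETS factors held 2 genes with no counts in treated cells. ETV4 had 65 and 0 counts, 11.0-fold lower against the floor. ETV5 had 30 and 0, 5.07-fold lower against the floor. ETV1 had 62 and 10 counts, and its interval reached inside 2-fold. CCND1, which encodes the cyclin that carries growth signals into the cell cycle, had 106 and 7 counts, at -2.88 (-4.29 to -1.85).

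Early response genes differed among themselves. IER3, an early response gene that protects against cell death, had 207 and 5 counts, at -4.30 (-6.03 to -3.14). EGR1, a zinc finger factor that serum and ERK induce within minutes in many cells, had 139 and 3 counts, 23.5-fold lower with a log2 ratio of -4.41 (-6.85 to -2.98). FOS, with 11 and 1 counts at -2.14 (-7.91 to 0.30), and JUNB, with 53 and 17 at -0.65 (-1.54 to 0.15), both AP-1 subunits, were not called. JUN, an AP-1 subunit outside the list, went the other way with 7 and 68 counts, at 4.14 (3.14 to 5.63).

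The promoter of EGR1 is shown because it carries the element through which serum response factor and its ERK-activated partners are known to act. It is the RefSeq sequence of the 250 bases before the gene's start, GRCh38.p14 chr5:138465229-138465478, plus strand (the counts were made on hg19), and capitals mark 2 matches to the CArG box, whose first bases lie 105 and 83 bases before the start. A CArG box is CC, then A or T at each of the next positions, then GG, searched on both strands.
EGR1: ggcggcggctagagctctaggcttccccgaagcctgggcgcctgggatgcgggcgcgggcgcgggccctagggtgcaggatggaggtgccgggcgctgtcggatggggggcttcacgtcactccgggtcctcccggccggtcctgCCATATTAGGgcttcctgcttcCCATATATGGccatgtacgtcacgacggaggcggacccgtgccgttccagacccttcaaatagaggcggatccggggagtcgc

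In windows of 250 bases before to 50 after the start, 263 of 15515 protein-coding genes with a RefSeq promoter held a CArG box (1.70%). Among genes lower in treated cells it was 7 of 159 (4.40%) and among higher genes 3 of 144 (2.08%), all as descriptions of letters and not of factor binding. EGR1 was the only one of 15 ERK outputs with a promoter in the table that held one. Sites of ETS factors, AP-1 and the CCAAT box were searched too. The ETS site CCGGAAG stood in 25.6% of compared genes, 14.5% of lower ones, 9.03% of higher ones and 13.3% of ERK outputs. The AP-1 site TGANTCA stood in 6.50%, 10.7%, 13.2% and 13.3% of these, and CCAAT in 44.1%, 57.2%, 53.5% and 33.3%.

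The kinases of the pathway itself were not among the genes called. Of 18 genes of the RAS to ERK cascade 16 were compared, 0 were higher and 0 lower, and their median was 0.22, or -0.34 by total counts. BRAF had 24 and 7 counts, at -0.77 (-2.26 to 0.46), and its counts equal those of another entry in all 4 libraries, so its value is uncertain. Of the 16 intervals 2 lay above 0 and 0 below it, and no difference beyond 2-fold was detectable at this depth.

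Genes of cell division were among the lower transcripts. Of 33 mitosis genes 27 were compared, 12 were lower and 0 higher, and 23 of the 27 intervals lay below 0. The median was -3.48, or -2.35 with members at 0 set at 3 counts. The members stood between -5.22 and -0.59, so that every compared member had fewer scaled counts in treated cells.

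TOP2A, the topoisomerase that untangles chromosomes before they separate, had 260 and 6 counts, at -4.38 (-5.92 to -3.31). ASPM, a spindle pole protein, had 168 and 3 counts, at -4.68 (-7.12 to -3.25). MKI67, the gene of the proliferation antigen Ki-67, had 149 and 4 counts, at -4.13 (-6.13 to -2.85). These are among the 20 lowest protein-coding genes by their bound.

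The kinetochore genes CENPF, with 205 and 9 counts at -3.48 (-4.68 to -2.58), and CENPE, with 55 and 2 counts at -3.59 (-6.88 to -1.88), were also lower. CDK1, the kinase that starts mitosis, had 24 and 0 counts, 4.05-fold lower against the floor. Its cyclin partner gene CCNB1 had 41 and 2, at -3.18 (-6.47 to -1.43). The other called members were KIF23, PRC1, ANLN, NCAPG and NUSAP1, which work in the spindle, cytokinesis and chromosome condensation.

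The promoter of TOP2A is shown because it holds the letters that most mitosis promoters share. The sequence is RefSeq, GRCh38.p14 chr17:40417897-40418146, minus strand, 250 bases before the start, and capitals mark 2 matches to the cell cycle homology region (CHR, searched as TTTGAA on both strands), with first bases 194 and 151 bases before the start.
TOP2A: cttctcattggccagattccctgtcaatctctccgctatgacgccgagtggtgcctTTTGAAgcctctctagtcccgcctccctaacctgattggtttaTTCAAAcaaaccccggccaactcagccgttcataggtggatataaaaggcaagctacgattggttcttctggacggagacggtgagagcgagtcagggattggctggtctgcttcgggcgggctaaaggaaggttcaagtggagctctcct

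The CHR is known as the element through which the DREAM and MuvB complexes silence mitotic genes in resting cells. Its letters stood in 20 of the 23 mitosis genes that have a promoter in the table (87.0%), in 2467 of all 15515 protein-coding genes (15.9%) and in 913 of the 6589 compared ones (13.9%). Among genes called lower it was 47 of 159 (29.6%), and among genes called higher 26 of 144 (18.1%). The genes called lower include 12 of the 27 compared mitosis members. A gene with several listed starts was counted once if any of them held a match.

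Genes of DNA replication had a median nearer 0 than the mitosis list. Of 38, 27 were compared, 4 were lower and 0 higher, and 16 intervals lay below 0, with a median of -1.59. RRM2, the regulated subunit of ribonucleotide reductase, had 35 and 0 counts, 5.91-fold lower against the floor. FANCD2, a DNA repair protein of stalled forks, had 26 and 0, 4.39-fold lower against the floor. E2F1, a transcription factor of the G1 to S step, had 31 and 1 counts, at -3.59 (-9.32 to -1.39), and CLSPN, a fork checkpoint adaptor, had 30 and 1, at -3.54 (-9.28 to -1.34). MCM7, a subunit of the replicative helicase, had 59 and 7 counts and a bound just short of 2-fold, at -2.04 (-3.47 to -0.96). In the promoters of this list the CHR was found in 2 of 23 genes (8.70%), while the E2F site searched as TTTGGCGC stood in 6 of 23 (26.1%) against 1.12% of all protein-coding genes.

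The clustered histone genes, whose transcripts are made during DNA synthesis, were also among the lower transcripts. This class was formed from gene symbols after values had been seen. Of 66 entries 55 were compared, and 23 were lower and 0 higher, with 49 intervals below 0 and a median of -2.26. Their counts summed to 3369 in untreated and 433 in treated cells. Single histone genes such as H3C15, with 190 and 5 counts, H3C2, with 82 and 1, and H2AC14, with 57 and 0, have near-identical copies, so the division of reads among them is uncertain.

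Genes tied to CDK inhibition, p53 and FOXO factors were called only as higher. Of 38 CDK inhibitors and targets of p53 and FOXO factors, 28 were compared, 4 were higher and 0 lower, with a median of 0.67 (0.09 by total counts). The 4 were TP53INP2, an autophagy and nuclear receptor cofactor, KLF9, a zinc finger factor, SESN3, a sestrin induced by FOXO, and IRS2, an adaptor of insulin receptors. TP53INP2 had 5 and 68 counts, at 4.57 (3.45 to 6.41), and KLF9 had 166 and 292, at 1.79 (1.52 to 2.08). SESN3 had 10 and 29 counts, at 2.44 (1.44 to 3.72), and IRS2 172 and 282, at 1.69 (1.42 to 1.98). By total counts KLF9, SESN3 and IRS2 lost the call. No CDK inhibitor gene was called.

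**Figure D2:**
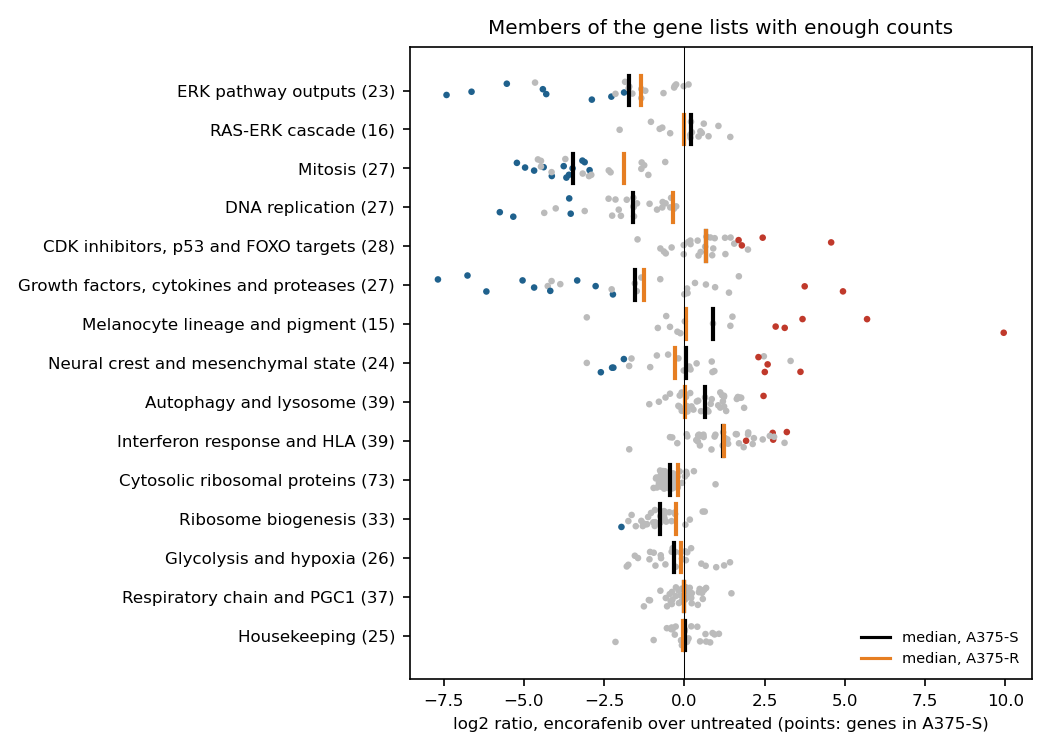
Each point is 1 compared member of a gene list in A375-S, placed by its log2 ratio of treated over untreated cells; red and blue points were called higher and lower, grey ones were not, and the number of members stands beside each name. Black bars are medians in A375-S and orange bars medians of the same genes in A375-R; mitosis lies farthest to the left, at -3.48 and -1.88.

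Genes of secreted proteins were among the lower transcripts. Of 50 growth factors, cytokines and proteases, 27 were compared, 9 were lower and 2 higher, with a median of -1.54 (-1.02 with members at 0 set at 3 counts). INHBA, which encodes the chain of activin A, had 1773 and 27 counts, 33.3-fold lower, and it ranked first among lower protein-coding genes by its bound. SERPINE2, a secreted inhibitor of thrombin and plasminogen activators, had 1290 and 96 counts, at -2.76 (-3.08 to -2.47). Together these 2 genes held most of the list's 4515 counts in untreated cells.

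TGFA, a ligand of the EGF receptor, had 168 and 3 counts, at -4.68 (-7.12 to -3.25). CEMIP, which degrades hyaluronan, had 135 and 0 counts, 22.8-fold lower against the floor. IGFBP3, a carrier of insulin-like growth factors, had 71 and 0, 12.0-fold lower against the floor. The neutrophil attractants CXCL1, with 47 and 0 counts, and CXCL8, with 47 and 1, were lower too. CXCL1 was 7.94-fold lower against the floor, and CXCL8 stood at -4.18 (-9.91 to -2.03). FST, the activin antagonist follistatin, had 67 and 7 counts, at -2.22 (-3.65 to -1.16), so the genes of activin and of its antagonist were both lower. The neuropeptide precursor VGF had 405 and 20 counts, at -3.34 (-4.09 to -2.71). The higher pair was SPP1, with 0 and 10 counts, and the membrane protease gene MMP15, with 1 and 11, which rest on few reads.

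Matrix and adhesion genes moved in both directions. Of 41, 31 were compared, 6 were higher and 5 lower, with a median of -0.21. Lower were HAPLN1, the link protein that ties hyaluronan to proteoglycans, with 361 and 6 counts at -4.85 (-6.39 to -3.79), and ITGB3, the integrin beta3 chain, with 239 and 14 at -3.08 (-4.01 to -2.34). ITGA1, a collagen-binding integrin chain, had 285 and 27 counts, at -2.40 (-3.05 to -1.85), and the protease inhibitor gene TIMP1 had 350 and 58, at -1.61 (-2.04 to -1.21). ITGA2, another chain that pairs with integrin beta1 to bind collagen, went the opposite way with 45 and 114 counts, at 2.31 (1.81 to 2.85). Higher beside it were THBS1, the gene of the matrix glycoprotein thrombospondin 1, with 75 and 217 counts at 2.50 (2.13 to 2.91), TIMP2 with 33 and 85, COL5A2 with 27 and 73, NID1 with 47 and 83 and VCAN with 4 and 14. NID1 and VCAN lost the call by total counts.

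Genes of pigment cells were split between a few that were high only under the drug and many with no counts at all. Of 37 melanocyte genes, 13 had 0 counts in both libraries and 15 were compared. Of the compared ones 5 were higher and 0 lower, with a median of 0.89 (0.32 by total counts). DCT, the melanin enzyme dopachrome tautomerase, had 0 and 332 counts, 218-fold higher against the floor, the largest change of any protein-coding gene by its bound. GPNMB, a glycoprotein of melanosomes and lysosomes, had 5 and 148 counts, at 5.69 (4.61 to 7.51).

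Beside these, TBX2, a T-box repressor of the melanocyte lineage, had 10 and 69, at 3.68 (2.80 to 4.89), and ASAH1, the lysosomal acid ceramidase, had 3 and 13, at 2.85 (1.23 to 5.55), a call lost by total counts. The other pigment enzymes and melanosome proteins did not follow, since TYR, TYRP1, PMEL and MLANA stood at 0 in both libraries. MITF, the master factor of the lineage, had 31 and 45 counts, at 1.50 (0.83 to 2.23), with a bound short of 2-fold. CSPG4, a melanoma surface proteoglycan that is not a pigment gene, was lower with 183 and 5 counts, at -4.12 (-5.85 to -2.96).

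The promoters of DCT and GPNMB are shown because they belong to the higher genes of largest ratio with a known link to MITF, whose family binds the M-box. Both are RefSeq, 250 bases before the start, with the M-box core, searched as TCATGTG on both strands, in capitals. DCT lies at GRCh38.p14 chr13:94479683-94479932, minus strand, from 1 of its 2 listed starts, with matches that begin 215 and 135 bases before it. GPNMB lies at chr7:23246525-23246774, plus strand, with matches that begin 123 and 62 bases before the start.
DCT: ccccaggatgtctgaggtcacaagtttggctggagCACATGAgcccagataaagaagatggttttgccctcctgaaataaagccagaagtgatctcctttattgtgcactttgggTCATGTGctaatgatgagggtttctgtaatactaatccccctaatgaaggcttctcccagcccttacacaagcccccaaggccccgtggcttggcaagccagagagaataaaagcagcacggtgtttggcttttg
GPNMB: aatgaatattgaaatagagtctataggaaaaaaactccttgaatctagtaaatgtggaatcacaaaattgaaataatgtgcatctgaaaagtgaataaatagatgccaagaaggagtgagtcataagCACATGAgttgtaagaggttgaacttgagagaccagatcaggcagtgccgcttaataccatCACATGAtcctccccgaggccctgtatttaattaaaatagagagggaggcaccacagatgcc

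The M-box core stood in 483 of 15515 protein-coding genes (3.11%), in 9 of 144 genes called higher (6.25%) and in 6 of 159 called lower (3.77%). In the melanocyte list it was in 2 of the 8 compared genes with a promoter in the table, DCT and GPNMB themselves. In the ERK output list it was in 3 of 15.

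Genes of the neural crest and of neurons followed no single direction. Of 35 neural crest and mesenchymal genes 24 were compared, 4 were higher and 4 lower, with a median of 0.07 (-0.49 by total counts). SOX4, a SOX factor of progenitor cells, had 46 and 134 counts, at 2.51 (2.03 to 3.04), and TFAP2A, an AP-2 factor of the neural crest, had 15 and 39, at 2.31 (1.47 to 3.33), a call lost by total counts. NES, the intermediate filament nestin, had 147 and 12 counts, at -2.60 (-3.62 to -1.79), and the matrix protein gene TNC had 112 and 12, at -2.21 (-3.24 to -1.38). TCF7L2, a partner of beta-catenin, had 395 and 54 counts, at -1.88 (-2.33 to -1.48). ZEB2, a repressor of the epithelial state, had 10 and 66, at 3.62 (2.73 to 4.83), but a small RNA gene overlaps its exons, so that value is uncertain.

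Of 50 neuronal and axon guidance genes 27 were compared, 7 were higher and 1 lower, with a median of 0.71 (0.13 by total counts). The prohormone convertases changed places. Against the floor, PCSK2 was 51.3-fold higher with 0 and 78 counts, and PCSK1 was 8.78-fold lower with 52 and 0. SEMA3C, a secreted semaphorin, had 36 and 463 counts, at 4.64 (4.18 to 5.20), and ANK3, the ankyrin of the axon initial segment, had 36 and 320, at 4.11 (3.63 to 4.67). PCDH7, a protocadherin, had 7 and 79 counts, at 4.35 (3.37 to 5.84), and GRIK2, a kainate receptor subunit, had 6 and 55, at 4.03 (2.96 to 5.68). Among genes in no list, RELN, the secreted glycoprotein reelin, was the most abundant called higher without a small RNA in its exons, with 908 and 3605 counts at 2.97 (2.86 to 3.08).

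The other genes of the 20 highest were ANGPTL7, a secreted angiopoietin-like protein with 0 and 97 counts, 63.8-fold higher against the floor, and TCN1, a vitamin B12 carrier with 1 and 78 counts, at 6.54 (4.75 to 12.59). MGP, the matrix Gla protein, had 6 and 79 counts, LYST, a regulator of lysosome-related organelles that include melanosomes, had 38 and 215, and CERT1, a ceramide carrier, had 36 and 195. ALCAM, an adhesion molecule, had 21 and 106, and MEF2C, a MADS-box factor, 15 and 75. Their log2 ratios ran from 3.25 for MEF2C to 4.55 for MGP.

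The other genes of the 20 lowest were SYTL5, a synaptotagmin-like protein of vesicle traffic with 263 and 3 counts, at -5.32 (-7.76 to -3.91), and PYGB, the brain form of glycogen phosphorylase with 239 and 8, at -3.86 (-5.15 to -2.92). PAPSS2, which makes the sulfate donor for proteoglycans, had 58 and 0 counts, 9.79-fold lower against the floor.

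**Figure D3:**
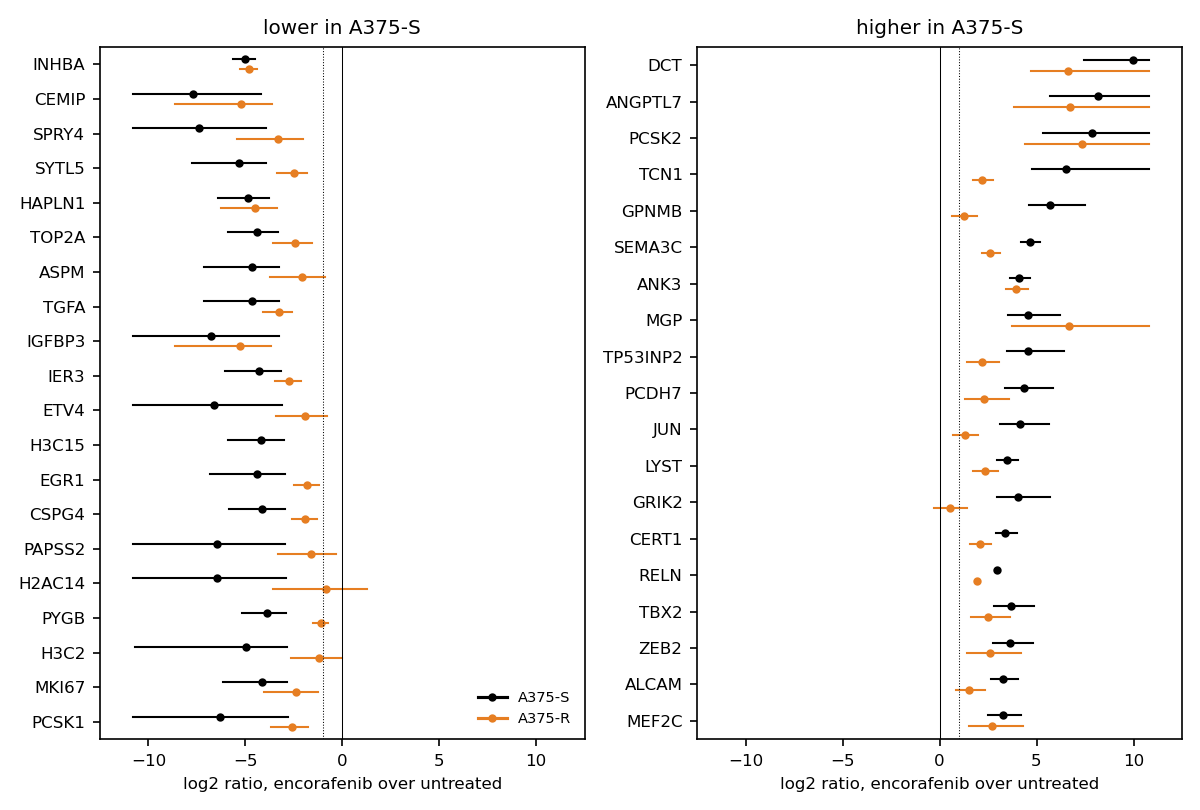
The 20 lowest and 20 highest protein-coding genes of A375-S by the bound nearest 0 (1 of the highest left out), among those with at least 50 counts, are shown with log2 ratios and 95% counting intervals in A375-S (black) and A375-R (orange). Bars that end at the far left or far right of a panel are cut there because they run farther or are unbounded, dotted lines mark 2-fold, and no orange point is drawn for H3C15, which had 0 counts in both A375-R libraries.

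Genes of survival at the mitochondrion were called in both directions, though on few counts. Of 18 BCL2 family genes 10 were compared, 2 were higher and 1 lower, with a median of -0.61. MCL1, a short-lived inhibitor of apoptosis, had 191 and 33 counts, at -1.54 (-2.13 to -1.01). The BH3-only genes BCL2L11, which encodes BIM, with 2 and 10 counts at 2.94 (1.07 to 6.53), and BMF, with 1 and 11 at 3.75 (1.66 to 9.87), were higher. By total counts BCL2L11 lost its call, and with DESeq2 size factors MCL1 did.

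Interferon and antigen presentation genes stood above the rest. Of 45 listed 39 were compared, 4 were higher and 0 lower, and 21 intervals lay above 0 and 0 below it. The median was 1.21, or 0.97 with members at 0 set at 3 counts and 0.63 by total counts. IFITM3, an antiviral membrane protein, had 90 and 174 counts, at 1.92 (1.56 to 2.32), and IFI6, a mitochondrial interferon-induced protein, had 9 and 33, at 2.77 (1.76 to 4.10). IFIT3 had 5 and 19 counts and IFITM1 2 and 12. By total counts IFI6 alone of these kept its call. Most other members were at few counts, and the more abundant B2M, the light chain of HLA class I, had 201 and 196 counts, at 0.94 (0.65 to 1.24).

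Of the 10 immune cell markers, CD68 was called higher, with 6 and 17 counts at 2.36 (1.07 to 4.11), a call lost by total counts, and it is also a lysosomal protein of other cells. The list summed to 8 counts in untreated and 18 in treated cells, and its defining markers PTPRC, CD3E and CD14 were at 0 in both. The 10 fibroblast markers summed to 17 and 11 counts with COL1A2 and COL3A1 at 0, the 7 endothelial markers to 2 and 7 with PECAM1 and CDH5 at 0, and the 8 keratinocyte markers to 32 and 27, all of them from KRT10.

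Autophagy and lysosome genes leaned upward with few calls. Of 44 listed 39 were compared, 1 was higher and 0 lower, with 13 intervals above 0 and 1 below, and a median of 0.65 (0.07 by total counts). CTSA, the lysosomal protective protein, had 38 and 108 counts, at 2.47 (1.94 to 3.06). PSAP, the precursor of saposins, had 125 and 138 counts, at 1.12 (0.76 to 1.48), and LAMP1, a lysosomal membrane protein, had 52 and 61, at 1.20 (0.65 to 1.77). The M-box core stood in 4 of the 27 compared members with a promoter in the table (14.8%).

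Iron genes were called one by one rather than as a list. Of 26 listed 18 were compared, with 2 higher, 1 lower and a median of 0.25 (-0.33 by total counts). The ferritin chains FTH1, with 162 and 263 counts, and FTL, with 318 and 415, were the higher pair, at 1.68 (1.39 to 1.97) and 1.36 (1.15 to 1.58). Both lost the call by total counts, where they stood at 1.09 and 0.78. SLC25A37, which brings iron into mitochondria, was lower with 635 and 77 counts. NCOA4, the receptor that delivers ferritin to autophagy, had 31 and 19 counts, at 0.27 (-0.63 to 1.14), and the transferrin receptor gene TFRC had 9 and 10, so that neither gave a difference detectable at this depth. Of 22 ferroptosis and glutathione genes compared out of 28, 1 was lower, the fatty acid activating enzyme ACSL3 with 175 and 22 counts at -1.99 (-2.72 to -1.37).

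Genes of protein synthesis held few calls under TMM. All 73 genes of the cytosolic ribosomal protein list were compared, 0 were higher and 0 lower, yet 65 intervals lay below 0 and 2 above. The median was -0.46, and the list includes TPT1, which does not encode a ribosomal protein. The 45 without a small RNA gene in an exon had the same median and 40 intervals below 0. RPS6 had 9020 and 2708 counts, at -0.75 (-0.82 to -0.69), and RPL12 had 1131 and 295, at -0.96 (-1.15 to -0.77). Both were called lower by total counts. The intervals above 0 were those of RPL32, with 3133 and 1952 counts at 0.30 (0.22 to 0.38), and TPT1, with 4024 and 4000 at 0.97 (0.91 to 1.04), and both genes have a small RNA gene in an exon.

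Of 35 ribosome biogenesis genes 33 were compared, 1 was lower, and 16 intervals lay below 0 and 1 above, with a median of -0.75. HEATR1, a factor of the early pre-ribosome, had 94 and 12 counts, at -1.96 (-2.99 to -1.12), and NPM1, the nucleolar phosphoprotein, had 536 and 143, at -0.92 (-1.20 to -0.66). Among 29 of 33 compared genes of amino acid supply and the unfolded protein response, 3 were lower and 0 higher, with a median of -0.29. They were PHGDH, the first enzyme of serine synthesis, with 57 and 3 counts at -3.13 (-5.59 to -1.65), the mitochondrial folate enzyme gene MTHFD2 with 50 and 4 at -2.57 (-4.59 to -1.22), and the glutamine carrier gene SLC38A1 with 88 and 11 at -1.99 (-3.07 to -1.11).

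Several lists showed no call under TMM. Of 26 glycolysis and hypoxia genes compared out of 33, 0 were higher and 0 lower, with a median of -0.32 and 8 intervals below 0, among them LDHA with 160 and 38 counts at -1.09 (-1.64 to -0.58). The same held for 37 of 40 respiratory chain genes (median -0.01), 20 of 27 sterol and fatty acid genes (-0.12), 16 of 30 receptor tyrosine kinases (-0.32) and 25 of 27 housekeeping genes (0.02, or -0.56 by total counts). Of the receptor kinases, AXL had 57 and 9 counts, at -1.65 (-2.88 to -0.66), and IGF1R 130 and 25, at -1.39 (-2.08 to -0.77). By total counts LDHA, AXL and IGF1R, among others, were called lower. The 31 of 37 compared YAP, SRF and actin genes held 1 call, the actin crosslinker ACTN1, lower with 169 and 10 counts at -3.06 (-4.18 to -2.18).

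Called protein-coding genes were close to the rest in base composition. Among genes with at least 50 counts, the median GC content of the longest transcript was 45.6% for 70 higher genes, 46.9% for 110 lower genes and 45.1% for 1476 genes not called. Median transcript lengths were 5786, 4474 and 4075 nt. Of the genes called, 8 had a small RNA gene in an exon and are uncertain, among them the most abundant higher ones, WDR74 with 5966 and 9599 counts, whose exons overlap an RNU2 copy, and CSKMT with 1836 and 1999, which overlaps SNORA57.

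Classes of RNA differed in how their share of counts moved. As a share of all gene counts, protein-coding genes went from 1.29% to 0.845%, 0.654-fold, and lncRNA from 0.420% to 0.355%, 0.845-fold. snoRNA went from 3.46% to 3.95%, 1.14-fold, while rRNA was level at 93.8% in both libraries. In A375-R the protein-coding share was 1.05-fold and the snoRNA share 1.56-fold with drug, while rRNA went from 92.4% to 88.7%. With rRNA left out of the denominator, the protein-coding share was lower with drug in both lines, from 20.9% to 13.7% in A375-S and from 18.8% to 13.2% in A375-R. The snoRNA share then went from 55.9% to 64.1% in A375-S and from 62.8% to 65.1% in A375-R.

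Among snoRNA genes, which guide the chemical modification of rRNA, 93 of 315 were higher (29.5%) and 0 lower (0%), with a median of 0.87 (0.29 by total counts). By total counts 24 were higher. The C/D box genes, which guide methylation, had 79 of 194 higher and a median of 0.99, and the H/ACA box genes, which guide pseudouridylation, had 14 of 121 and a median of 0.59. SNORD77 had 196 and 620 counts, at 2.64 (2.41 to 2.88), and SNORD11B 584 and 1523, at 2.36 (2.23 to 2.50). At the other end SNORD111 had 1903 and 788 counts, at -0.29 (-0.41 to -0.17), and SNORD50A, at 28643 and 13144, stood at -0.14 (-0.17 to -0.11).

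Among lncRNA genes 13 of 241 were higher (5.39%) and 11 lower (4.56%), with a median of -0.11. SPRY4-IT1 had 85 and 0 counts, 14.4-fold lower against the floor. It lies within SPRY4, so its reads cannot be told apart here from those of its host. MIR100HG, the host of miR-100, let-7a-2 and one miR-125b gene, had 87 and 6 counts, at -2.81 (-4.36 to -1.70). SNHG12, a snoRNA host, had 2821 and 3182 counts, at 1.15 (1.08 to 1.23), and the nuclear RNA MALAT1 had 10447 and 10890, at 1.04 (1.00 to 1.08), with each below 2-fold by total counts.

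For tRNA genes 22 of 181 were higher (12.2%) and 9 lower (4.97%), but 112 of them share identical counts with another entry, and the 5 highest, copies of TRE-CTC1 with 0 and 68 counts, are such a group. For snRNA genes 3 of 37 were higher (8.11%) and 3 lower (8.11%). The lower ones, RNVU1-18 with 116 and 0 counts, RNU6-1 with 470 and 15 and RNU6-7 with 300 and 51, belong to families of near-identical copies. Single rRNA copies, which are near-identical too, had values such as 0 and 21996 counts for RNA28SN3 and 15462 and 4 for RNA18SN1, and no direction is read from them. The Y RNA genes, components of Ro particles, differed among themselves, RNY1 with 42623 and 17076 counts at -0.34 (-0.36 to -0.31) and RNY5 with 15810 and 16610 at 1.05 (1.02 to 1.08).

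**Figure D4:**
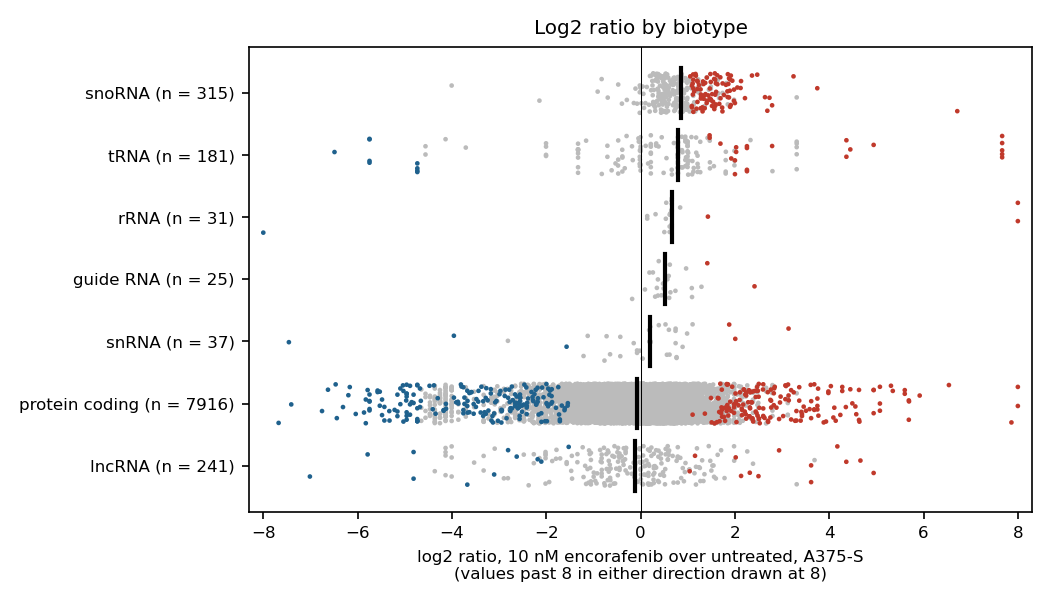
Log2 ratios of treated over untreated A375-S cells are drawn for every compared gene of 7 biotypes, red where higher and blue where lower beyond 2-fold, with a black bar at each median and values past 8 drawn at 8. The snoRNA genes sit to the right, with a median of 0.87, against -0.08 for protein-coding and -0.11 for lncRNA genes.

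The microRNA tables held few reads, 7041 counts in untreated and 4395 in treated cells, so that 3 counts come to 426 and 683 CPM of microRNA counts. MicroRNAs pair with target transcripts through the seed, bases 2 to 8 of the mature strand, and those with the same seed share predicted targets. Sequences are given for the microRNAs on which the results turn and for their relatives with the same seed, so that the pairs can be read against each other. They are mature sequences from RefSeq (GRCh38.p14), which holds 174 of the 190 microRNAs compared, with the seed in capitals.
hsa-miR-125b-5p: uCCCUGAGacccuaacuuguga
hsa-miR-125a-5p: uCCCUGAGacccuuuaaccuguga
hsa-miR-100-5p: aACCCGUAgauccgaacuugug
hsa-miR-99b-5p: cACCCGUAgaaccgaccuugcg
hsa-miR-92a-3p: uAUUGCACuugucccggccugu
hsa-miR-92b-3p: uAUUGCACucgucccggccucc
hsa-miR-25-3p: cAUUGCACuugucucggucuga
hsa-miR-23a-3p: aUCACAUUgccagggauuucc
hsa-miR-23b-3p: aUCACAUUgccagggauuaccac
hsa-let-7a-5p: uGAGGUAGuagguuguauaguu
hsa-miR-296-5p: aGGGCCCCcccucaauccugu
hsa-miR-328-3p: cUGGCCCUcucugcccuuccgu
hsa-miR-7704: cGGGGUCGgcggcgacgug

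Of 190 microRNAs compared, 2 were higher (1.05%) and 1 lower (0.526%), and the 60 with at least 20 counts in 1 of these libraries had a median of -0.27. The lower one was hsa-miR-125b-5p, with 573 and 156 counts, 2.60-fold lower (2.17 to 3.12) and -1.37 in log2 (-1.64 to -1.12). It lost its call by total counts and with the scaling of the gene table. Its genes lie at GRCh38.p14 chr11:122099809-122099830, minus strand, and chr21:16590253-16590274, plus strand. On chromosome 11 the genes of hsa-miR-100-5p (chr11:122152275-122152296) and of 1 let-7a copy (chr11:122146568-122146589) lie beside it on the same strand.

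Relatives with the same seed differed in their ratios. hsa-miR-125a-5p, which shares its seed with hsa-miR-125b-5p, had 805 and 571 counts, at 0.01. hsa-miR-100-5p had 20 and 2 counts, 7.07-fold lower with a counting interval of 1.72 to 62.4, and its relative hsa-miR-99b-5p had 72 and 32, at -0.66. The intervals of the hsa-miR-125 pair do not overlap, and those of hsa-miR-100-5p and hsa-miR-99b-5p do. Since hsa-miR-125b-5p also has a gene on chromosome 21, its counts cannot be assigned to the MIR100HG region.

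In the seed group of hsa-miR-92a-3p, which had 507 and 187 counts at -0.94 (-1.19 to -0.69), hsa-miR-92b-3p had 174 and 157 at 0.35 (0.03 to 0.67). Their intervals do not overlap, although the strands differ at few positions, and the sources used here do not say how reads that match both were divided. hsa-miR-25-3p had 51 and 30 counts, and its interval spans 0. Similarly hsa-miR-23b-3p had 23 and 31 counts, at 0.91 (0.11 to 1.78), and hsa-miR-23a-3p had 147 and 81, with an interval that spans 0.

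Other microRNAs with lower values short of the call were hsa-miR-296-5p, with 246 and 77 counts at -1.17 (-1.56 to -0.80), and hsa-let-7a-5p, with 236 and 98 at -0.76 (-1.12 to -0.42). The 9 members of the let-7 family summed to 424 and 192 counts, -0.64 (-0.90 to -0.39). miR-221 and miR-222 summed to 55 and 19 counts, at -1.02 (-1.87 to -0.26). hsa-miR-328-3p had 179 and 279 counts, 2.21-fold higher (1.82 to 2.68), the best counted of the higher ones. The called higher microRNAs were hsa-miR-7704, with 3 and 25 counts, 11.8-fold higher (3.60 to 61.0), and hsa-miR-4488, with 1 and 11. For the latter pair the ratio rests on 1 to 3 untreated reads.

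**Figure D5:**
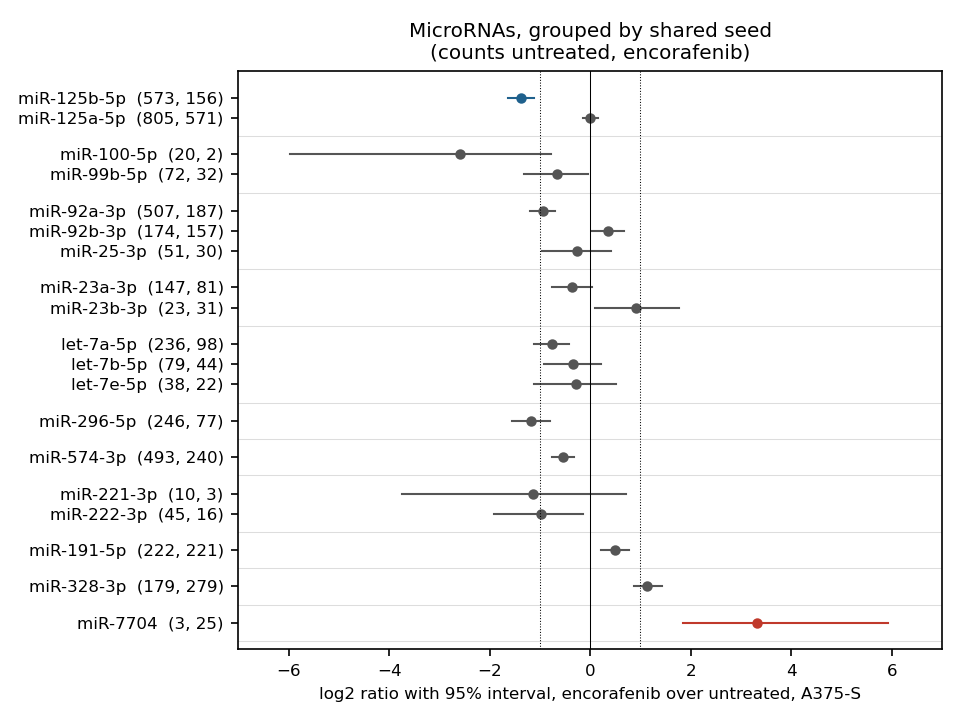
Log2 ratios with 95% counting intervals of chosen microRNAs in A375-S are grouped by shared seed, with the counts in untreated and treated cells beside each name; blue and red mark those called lower and higher. miR-125b-5p lies at -1.37 below its seed relative miR-125a-5p at 0.01, and miR-92a-3p at -0.94 below miR-92b-3p at 0.35.

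Side by side with A375-R, the A375-S pair had more calls in both directions. The number of calls also depends on depth. Protein-coding counts in untreated and treated cells were 435351 and 215894 in A375-S, and 326919 and 307026 in A375-R. In A375-R 92 protein-coding genes were higher (1.16%) and 120 lower (1.52%), and the pairs share no library. Of genes lower in A375-S, 68 were also lower in A375-R, 34.7% of the A375-S list and 56.7% of the A375-R list. Of genes higher in A375-S, 55 were also higher there, 32.4% and 59.8%. An A375-R interval on the opposite side of 0 was found for 3 of the higher and 3 of the lower genes, 1 of the latter beyond 2-fold. For the 196 lower genes the median ratio was -3.36 in A375-S and -1.54 in A375-R, and for the 170 higher genes it was 2.70 and 1.42. These genes were chosen by their A375-S values, which favours a larger median there, so the medians are given only as a description.

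List medians are given for both lines, A375-S first. The ERK outputs had medians of -1.74 and -1.35, with 8 and 6 genes lower, and secreted factors -1.54 and -1.26, with 9 and 10 lower. For mitosis the medians were -3.48 and -1.88, with 12 and 3 lower, beside 1528 and 450 counts for the list in the untreated libraries. The A375-S median was -2.35 with members at 0 set at 3 counts. Matrix and adhesion genes had -0.21 and -0.53, with 5 and 6 lower. Lysosome genes had 0.65 and 0.01, and the interferon list 1.21 and 1.25. The difference between the lines has no test here. The ratio of INHBA was -5.04 in A375-S and -4.80 in A375-R, that of ANK3 4.11 and 3.97, and that of THBS1 2.50 and 2.43, each pair within its counting intervals. GPNMB stood at 5.69 and 1.25, JUN at 4.14 and 1.30 and TOP2A at -4.38 and -2.46, with intervals that do not overlap for the first pair of genes.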

How the data were processed

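Per the labels, total RNA was made into libraries with a small-RNA kit (SMARTer smRNA-Seq, NextSeq). The authors deposited raw read counts per gene and per mature microRNA, 1 column per library, and the submitters' processing notes name hg19 as build. Which aligner and counter were used, and how strand and multiply matching reads were treated, is not given in the sources used. No deposited column is normalized.

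Counts were scaled with TMM factors over the 4 libraries (edgeR 4.0.16, R 4.3.3), the gene and microRNA tables separately. Log2 ratios used a prior count of 0.5 scaled to library size. Exact conditional (Clopper-Pearson) 95% intervals came from scipy 1.17.1. They were run on simulated Poisson counts, the model they assume, so that run cannot speak to amplification or to the spread between cultures. Depths and the floor of 3 counts stand in the report, and precision is set by counts alone. The floor was 6.89 CPM of protein-coding counts in untreated and 13.9 CPM in treated cells. Alternatives were DESeq2 1.42.0 size factors, total counts, TMM on subsets, other count minimums, a prior count of 2, and removal of entries with identical counts (542 of 8865 compared) or of protein-coding genes with a small RNA gene in an exon (283 of 7916). Small RNA overlap, GC content and length came from GENCODE release 29 by Entrez identifier, with no coordinates carried over. Sequences came from RefSeq tables.

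The rule for named genes took, per direction, 20 protein-coding genes with at least 50 counts and the bound farthest from 0, up to 6 members of each list with at least 20 counts, 5 and 5 genes of the noncoding classes, 8 and 8 microRNAs, and NCOA4, FTH1, FTL, TFRC, BRAF and MITF. Other genes were named after their values were seen, as were the classes of histones and of snoRNA boxes, the motifs and the promoters shown. A few genes are not reported here by name. Lists and members were chosen with earlier results of these data known.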

Additional observations from a re-analysis of the deposited data

Results flagged for a closer look

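The results below lay on opposite sides of 0 in A375-S and A375-R, each interval excluding 0, and the difference between the lines was not tested since each group has 1 library. Only genes and microRNAs taken by the naming rule were searched, without rRNA genes and entries with counts identical to another, so the list is not complete. Each value is the log2 ratio in A375-S less that in A375-R. With higher ratios in A375-S, the collagen receptor chain ITGA2 differed by 3.50, the snoRNA host SNHG12 by 1.54 and TPT1, with a small RNA in its exons, by 1.19. Among microRNAs hsa-miR-6516-3p differed by 2.07, hsa-miR-328-3p by 1.46 and hsa-miR-92b-3p by 0.92.

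With lower ratios in A375-S, the iron-sensing ubiquitin ligase gene FBXL5 differed by -1.94, on 43 and 11 counts in A375-S and 14 and 27 in A375-R, with a bound at -0.01 in the first pair and 0.01 in the second. The small RNA genes RNVU1-18 at -9.90, RNU6-7 at -6.75, RNU6-1 at -5.16, TRV-CAC3-1 at -1.86 and SNAR-C3 at -1.31 were the others among those searched, all from families of similar copies.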

How the results depend on the processing

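No paired analysis was possible because the labels give no replicate numbers and each group has 1 library, which also leaves no library that could be left out. By total counts, 139 gene entries (90 protein-coding) were higher and 575 (534) lower, with 24 snoRNA genes higher, 6 lncRNA genes higher and 20 lower, 12 tRNA genes higher and 1 snRNA gene higher. With at least 50 counts in 1 of the 2 libraries, 191 entries (70 protein-coding) were higher and 120 (110) lower, with 4 lncRNA genes higher and 5 lower and 1 tRNA gene lower. That minimum moved the median less that of all protein-coding genes to 3.35 for melanocyte genes, 4.29 for neuronal genes and -0.24 for ribosomal proteins. A prior count of 2 moved that of mitosis to -2.57, and without a minimum 22 lncRNA genes were higher. Without entries with identical counts 7 tRNA genes were higher and 1 lower. For microRNAs, 0 were lower by total counts, 4 were higher and 0 lower with the scaling of the gene table, and 1 was higher with at least 20 counts. The snoRNA share was 1.15-fold without rRNA in the denominator. The cause of these moves was not tested, beyond the shift of every ratio by the total-count scaling and the fewer genes that stricter minimums keep. No value that was called changed sign, and of 106 called genes taken by the naming rule 94 kept the call by total counts. The 12 that lost it were SNHG12, MALAT1, RNU12, RNU5A-1, RNA45SN2, KLF9, SESN3, IRS2, TFAP2A, FTH1, FTL and IFITM3. Genes named outside that rule lost it too, among them NID1, VCAN, ASAH1, BCL2L11, CD68, IFIT3 and IFITM1. Other named genes gained a lower call by total counts, among them RPS6, RPL12, NPM1, LDHA, AXL and IGF1R. The microRNA depth, where 3 counts come to 426 and 683 CPM, limits most microRNA ratios.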
